A study of Homo sapiens with 12 samples.

Results

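Loss of ANKRD52 in the established human colorectal carcinoma line HCT116 was described gene by gene in polyadenylated RNA. ANKRD52 is a regulatory ankyrin repeat subunit of protein phosphatase 6 (PP6). The members are the genes with a mean log2 CPM, a count scaled to library size, over the series of at least 1, which are 11877 of the 12756 genes in the authors' deposited table, and 879 genes lay below that level. The compared groups were 3 libraries of cells with an ANKRD52 knockout and 3 libraries of the parental line, which carries no knockout. Cells that lack both ANKRD52 and CSNK1A1 (double knockout) and AGO2 knockout cells, with 3 libraries each, were used to show where the ANKRD52 knockout differs. All groups were HCT116 cells harvested 48 hours after seeding, and no agent is named for any of them. Whether a knockout line was 1 clone or a pool, and whether replicates were separate cultures, is not given in the sources used here, so p-values measure a spread between libraries that may be technical.

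MicroRNAs guide Argonaute proteins to matching sites, mostly in the 3' untranslated regions (3' UTRs) of messenger RNAs, and the scaffold proteins TNRC6A, TNRC6B and TNRC6C then recruit the enzymes that silence and degrade the message. Argonaute proteins can be phosphorylated on a cluster of serines by casein kinase 1 alpha, the product of CSNK1A1, and dephosphorylated by PP6 with ANKRD52, and the title of the study names such a phosphorylation cycle. In epithelial cells the miR-200 family restrains ZEB1 and ZEB2, transcription factors that bind CACCTG letters in promoters of epithelial genes and lower their transcription, and let-7 restrains HMGA2 and DICER1. The comparison asks how the transcriptome differs when ANKRD52 is lost.

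The files hold fold changes and no value per library, so values per replicate cannot be shown and the depth of each library is unknown. Each gene is given by its log2 fold change, knockout over parental, with an approximate standard error (SE) rebuilt from the deposited likelihood ratio. Group levels in CPM were implied from the mean and the fold changes. Markers of other cell types were mostly missing from the table: 1 of 9 fibroblast markers, 3 of 7 endothelial, 2 of 9 leukocyte and 3 of 7 neuronal or glial markers were listed. Of 10 colorectal epithelial markers 7 were listed, without CDH17, LGALS4 and GPA33, and the keratins KRT8 and KRT18 stood at a mean log2 CPM of 11.18 and 9.88. At the edge of the membership rule, LHX5 lay just inside with a mean log2 CPM of 1.001 and a log2 fold change of -0.88, and GPNMB lay just outside with 0.999 and -0.01.

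The sequences that carry the results are those of 4 microRNAs whose seed matches went with higher levels, of let-7a-5p, and of sites in the genes described below. The seed match effect of let-7a-5p was within 1 SE of 0, and its sequence is printed for the let-7 linked genes. Mature sequences are from RefSeq (GRCh38.p14), with bases 2 to 8, the seed, in capitals. miR-200b-3p is encoded at chr1:1167160-1167181 (+), miR-19b-3p at chr13:91351245-91351267 (+) and again on chromosome X, miR-221-3p at chrX:45746180-45746202 (-), and let-7a-5p at chr9:94175962-94175983 (+) and at 2 other loci in the table.
miR-200b-3p: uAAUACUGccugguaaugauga
miR-19b-3p: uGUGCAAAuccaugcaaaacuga
miR-29a-3p: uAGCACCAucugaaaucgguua
miR-221-3p: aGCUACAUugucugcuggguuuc
let-7a-5p: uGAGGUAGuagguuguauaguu

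Genes of 2 classical target sets are shown with their own sites, read on the sense strand from GENCODE release 29 (GRCh38) with the 7 bases that pair with the seed in capitals. The 3' UTR of ZEB1 on chromosome 10 holds 6 matches to miR-200b-3p within 2549 bases, that of QKI on chromosome 6 holds 3, and that of FN1 on chromosome 2 holds 2. No match to let-7a-5p was listed for DICER1 or TNRC6A, and none to miR-200b-3p for VIM, which were looked up likewise. HMGA2 on chromosome 12 holds 4 matches to let-7a-5p in the annotated 3' UTR with most of them, and HMGA1 and IGF2BP2 hold 1 each. These are the first ZEB1 site and another further on, at chr10:31527619-31527640 and chr10:31528493-31528514, the second QKI site at chr6:163573220-163573241, the first FN1 site at chr2:215361303-215361324 (-), the first HMGA2 site at chr12:65963299-65963320 and the HMGA1 site at chr6:34245830-34245851.
ZEB1, first site: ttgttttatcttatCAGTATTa
ZEB1, another site: tgatttttacctatCAGTATTa
QKI, second site: aatgccttggttctCAGTATTa
FN1, first site: tattcaataccgctCAGTATTt
HMGA2, first site: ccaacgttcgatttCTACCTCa
HMGA1: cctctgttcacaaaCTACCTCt
Each letter string is a match and nothing more: CAGTATT stood in the 3' UTRs of 2268 of 11334 genes and CTACCTC in 1325.

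Among the 11877 described genes 1662 (14.0%) passed the authors' adjusted p under 0.05 in the ANKRD52 knockout against the parental line. Of these, 927 rose (7.81%) and 735 fell (6.19%). These shares over all described genes are the background for the list counts below. Most changes were modest: the median absolute change of called genes was 1.39-fold, 130 genes rose and 60 fell by at least 2-fold, and 28 rose and 8 fell by at least 4-fold. The median log2 fold change of all described genes was 0.0005, and the median approximate SE was 0.13. The share called was 10.9% among genes with a mean log2 CPM of 1 to 3 and 15.3% among those of 5 to 7. The calls rest on a chi-square reading of the authors' likelihood ratios: with F(1, 8) as their distribution, 3 genes, DICER1, HMGA2 and SYDE1, kept an adjusted p under 0.05, and 2347 had an unadjusted p under 0.05.

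**Figure D1:**
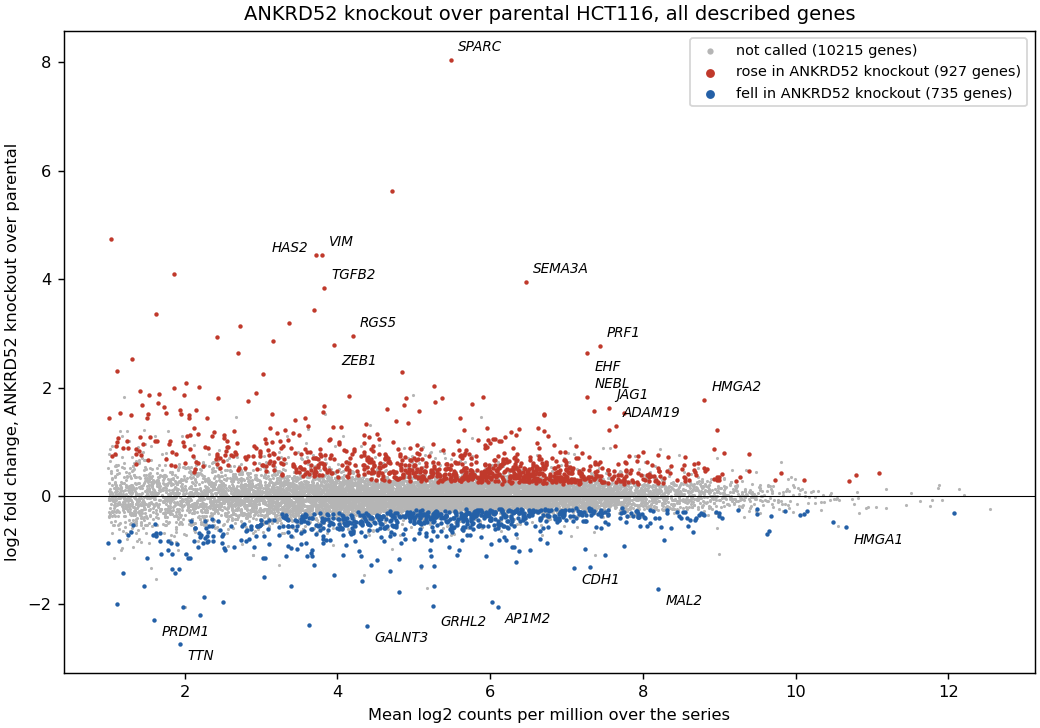
Each point is a described gene, with its mean log2 CPM over the series on the x axis and its log2 fold change, ANKRD52 knockout over parental, on the y axis; 927 red genes rose, 735 blue genes fell and grey genes were not called. SPARC, at 8.04, lies highest, the falls reach -2.72 at TTN, and the epithelial genes MAL2, CDH1, AP1M2 and GRHL2 lie well below 0 at moderate to high expression.

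The targeted gene was examined first, within its phosphatase. ANKRD52 RNA stood at an implied 159 CPM in the knockout and 155 CPM in the parental line, with a log2 fold change of 0.03 (approximate SE 0.14, adjusted p = 0.915) in the authors' deposited table. The RNA level therefore does not separate the groups, and a measure of the protein was not used here. In bulk RNA, fewer cells that express a gene and less RNA per cell cannot be told apart, here and below. Of 7 PP6 subunit genes 2 rose and 0 fell. ANKRD44, another ankyrin repeat subunit of PP6, rose by 0.77 (SE 0.20, adjusted p = 0.00284), at an implied 9.34 CPM in the knockout and 5.47 CPM in the parental line, from the authors' deposited table. PPP6C, the catalytic subunit, rose by 0.24 (SE 0.08, adjusted p = 0.0324) in the authors' deposited table. The other ankyrin subunit ANKRD28 had -0.09, and the Sit4-associated subunits PPP6R1, PPP6R2 and PPP6R3 lay between -0.02 and 0.02, with adjusted p-values of at least 0.564, in the authors' deposited table. ANKRD44 was higher in the ANKRD52 knockout than in the AGO2 knockout (0.18 there, adjusted p of the difference = 0.039) and than in the double knockout (-0.30, adjusted p of the difference = 1.8e-06). ANKRD52 itself was also lower than in the AGO2 knockout and higher than in the double knockout (adjusted p of the differences = 1.4e-06 and 8.9e-06).

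Among 7 casein kinase 1 genes, whose alpha member phosphorylates Argonaute, 1 fell and 0 rose. The share called was 14.3%, near the 14.0% of all described genes. CSNK1G2 fell by 0.26 (SE 0.09, adjusted p = 0.0371), and CSNK1A1 had 0.03 (SE 0.34, adjusted p = 0.969) in the authors' deposited table. CSNK1D (0.10), CSNK1E (-0.06), CSNK1G1 (0.18) and CSNK1G3 (-0.06) were not called by the authors' deposited table. CSNK1A1L, at 0.28 (adjusted p = 0.491) in the authors' deposited table, resembles CSNK1A1 in sequence, so the reads of the pair may have been split uncertainly.

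The scaffold genes of silencing were higher. Of 7 Argonaute and scaffold genes 3 rose, 0 fell and all 7 had log2 fold changes above 0, with a median of 0.33, against a median of 0.0005 over all described genes. The risen genes were the 3 scaffolds: TNRC6A rose by 0.63 (SE 0.10, adjusted p = 5.62e-08), TNRC6B by 0.43 (SE 0.08, adjusted p = 1.18e-05) and TNRC6C by 0.41 (SE 0.09, adjusted p = 0.000524) in the authors' deposited table. Implied levels were 217, 181 and 88.1 CPM in the knockout, against 140, 135 and 66.3 CPM in the parental line. All 3 were higher than in the AGO2 knockout, where they stood at 0.34, 0.10 and -0.30 in the authors' deposited table (adjusted p of the differences = 0.042, 0.0022 and 8.4e-11). The Argonautes AGO1 (0.21), AGO2 (0.33), AGO3 (0.09) and AGO4 (0.05) were not called in the authors' deposited table, and the SE of AGO2 was wide, at 0.36. The other silencing lists did not stand apart: 1 of 13 microRNA processing genes rose (median 0.07), and 1 of 23 deadenylation, decapping and decay genes (median 0.015), against 7.81% of all described genes. The processing gene was DICER1, which cuts precursors into mature microRNAs, with 188 CPM implied in the knockout and 99.5 CPM in the parental line. Its log2 fold change of 0.92 (SE 0.09, adjusted p = 2.55e-19) in the authors' deposited table stood beside 0.77 in the AGO2 knockout and 0.04 in the double knockout. The nuclear processing pair DROSHA and DGCR8 had -0.04 and 0.07 in the authors' deposited table and were not called. The decay gene was DCP2, the decapping enzyme, with a rise of 0.64 (SE 0.10, adjusted p = 2.22e-08) in the authors' deposited table.

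Genes linked to miR-200 were higher as a group. Of 20 described members 11 rose (55%) and 1 fell (5%), against 7.81% and 6.19% of all described genes. Of the 20, 17 were above 0, and the median log2 fold change was 0.41. ZEB1, which represses epithelial genes, had an implied 34.8 CPM in the knockout and 5.08 CPM in the parental line, a rise of 2.78 (SE 0.55, adjusted p = 3.43e-05) in the authors' deposited table. QKI, an RNA-binding protein that directs splicing and circular RNA formation, reached 87.4 CPM in the knockout, against 45.6 CPM in the parental line (0.94, SE 0.12, adjusted p = 5.11e-12, authors' deposited table). The actin regulators CFL2 (0.40) and MSN (0.48), the Notch ligand JAG1 (1.63), the Notch coactivator MAML2 (0.86), the Ras-association protein RASSF2 (0.60), the metalloprotease inhibitor RECK (0.90) and fibronectin, FN1 (0.84), rose in the authors' deposited table. VEGFA, the angiogenic growth factor, was the member that fell, by 0.52 (adjusted p = 0.000602) in the authors' deposited table. Against the AGO2 knockout 7 of the 20 were higher and 2 lower, and against the double knockout 6 were higher and 4 lower. Over all described genes 5.52% were higher and 3.91% lower than in the AGO2 knockout, and 16.3% and 18.1% than in the double knockout. ZEB1 stood at 1.58 in the AGO2 knockout and 0.49 in the double knockout by the authors' deposited tables, and its difference passed against the double knockout (adjusted p = 0.00015) and not against the AGO2 knockout (adjusted p = 0.15). ZEB2 and SNAI2 lay below the expression minimum, and SNAI1 (-0.11), SNAI3 (-0.69) and TWIST1 (0.31), other repressors of epithelial genes, were not called in the authors' deposited table.

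Of 16 let-7 linked genes 3 rose and 1 fell, 14 were above 0, and the median was 0.25. HMGA2, an architectural chromatin protein, had 830 CPM implied in the knockout and 243 CPM in the parental line, a rise of 1.77 (SE 0.16, adjusted p = 2.78e-23) in the authors' deposited table, and DICER1, given above, is also in this list. NRAS, a small GTPase, rose by 0.37 (adjusted p = 0.000838) in the authors' deposited table. HMGA1, the other member of the HMGA family, fell by 0.58 (SE 0.14, adjusted p = 0.00102) in the authors' deposited table, although its 3' UTR holds the site printed above. The members IGF2BP2 (0.21) and IGF2BP3 (0.78) were not called in the authors' deposited table. HMGA2 was higher than in the AGO2 knockout, where it stood at 1.20 (adjusted p of the difference = 0.0094), and than in the double knockout, where it stood at -0.69 (adjusted p of the difference = 1.4e-49), by the authors' deposited tables.

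**Figure D2:**
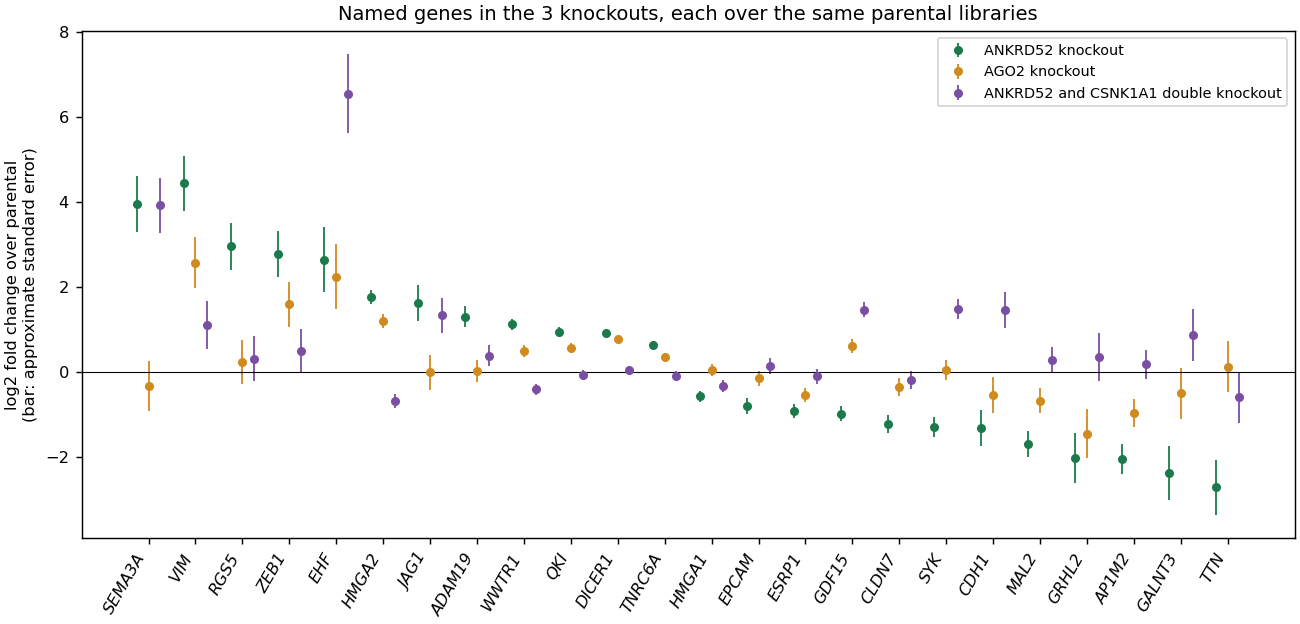
Points are log2 fold changes over parental for 24 named genes in the ANKRD52 knockout, the AGO2 knockout and the double knockout, with bars of 1 approximate SE; all 3 share the parental libraries. HMGA2, QKI, DICER1 and TNRC6A lie above 0 in the ANKRD52 knockout and at or below 0.1 in the double knockout, and the epithelial genes GRHL2, AP1M2, MAL2 and CDH1 lie lowest in the ANKRD52 knockout.

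Over all genes with an annotated 3' UTR, seed matches of several families went with slightly higher levels. The effect of a 7-base match on the log2 fold change, with 3' UTR length, GC content and mean expression as covariates, was 0.043 (SE over genes 0.0099) for miR-19b-3p, 0.037 (SE 0.0096) for miR-200b-3p, 0.030 (SE 0.0096) for miR-29a-3p and 0.028 (SE 0.012) for miR-221-3p. These 4 of 22 families known from colon cells lay above the highest of 8 families known from other tissues, miR-142-3p at 0.027, miR-221-3p by far less than its SE, and 0 of 22 did so when matches of 6 bases or longer were counted. The median over the 22 was 0.0080 and that over the 8 was 0.0090, so most families did not stand above that background. The let-7a-5p effect was 0.0057 (SE 0.011), within 1 SE of 0. Among the 613 genes with an 8-base match to miR-200b-3p, 120 rose (19.6%) and 11 fell (1.79%), with a median log2 fold change of 0.13, against 7.81% and 6.19% of all described genes. Genes with a match have longer 3' UTRs, and of the genes with the longest 3' UTRs, given below, 13.3% rose and 3.22% fell. With an 8-base match to a family known from other tissues, the share that rose ran from 10.5% (miR-9-5p) to 14.3% (miR-142-3p). Genes are not replicates and share these libraries, so the SE describes spread over genes and no p is given. The seeds of miR-302a-3p and miR-17-5p overlap, so in this background miR-302a-3p is not free of miR-17-5p sites.

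**Figure D3:**
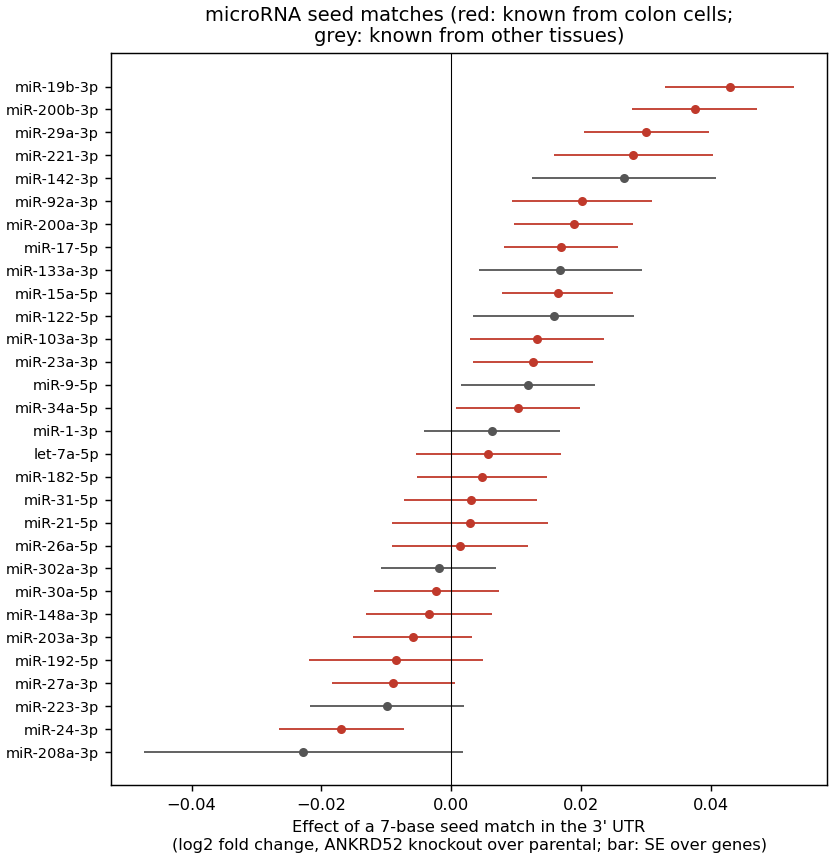
Points are the effect of a 7-base seed match in the 3' UTR on the log2 fold change, ANKRD52 knockout over parental, with bars of 1 SE over genes; red families are known from colon cells and grey ones from other tissues. miR-19b-3p, at 0.043, and miR-200b-3p, at 0.037, lie highest, and the grey families spread from -0.023 to 0.027.

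The length of the 3' UTR went with the calls. Genes with a 3' UTR were divided into 5 equal bins. In the bin of longest 3' UTRs (median 4652 bases) 302 of 2267 rose (13.3%) and 73 fell (3.22%), and in the bin of shortest (median 309 bases) 73 rose (3.22%) and 231 fell (10.2%). Median log2 fold changes over the bins, short to long, were -0.09, -0.03, 0.01, 0.05 and 0.07. GC content ran the other way, with 0.05 in the bin of lowest GC content and -0.07 in the bin of highest. These bins do not separate length from GC content. Over the same parental libraries the bins of shortest and longest 3' UTRs stood at -0.05 and 0.04 in the AGO2 knockout and at -0.13 and 0.11 in the double knockout. The part of RNA quality or library preparation in this trend was not tested.

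**Figure D4:**
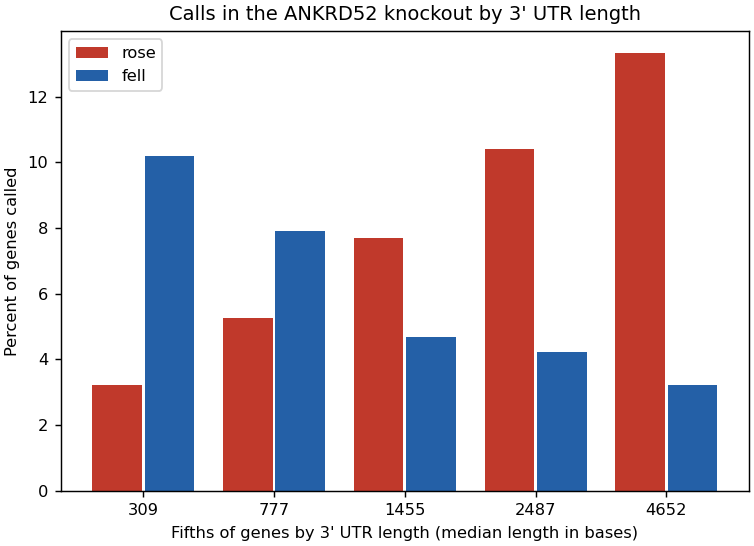
Bars are the percent of genes that rose (red) and fell (blue) in the ANKRD52 knockout against parental, in 5 bins of genes by 3' UTR length, with the median length in bases on the x axis. The share that rose is 3.22% in the shortest bin and 13.3% in the longest, and the share that fell is 10.2% and 3.22%.

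Epithelial regulators fell. Of 14 epithelial transcription and splicing factors 7 fell (50%) and 2 rose (14.3%), against 6.19% and 7.81% of all described genes. Their median was -0.49. GRHL2, a grainyhead factor that keeps epithelial genes open, had 12.9 CPM implied in the knockout and 52.8 CPM in the parental line, a fall of 2.03 (SE 0.59, adjusted p = 0.0083) in the authors' deposited table. OVOL1, a zinc finger repressor of ZEB1, fell by 1.67 (SE 0.37, adjusted p = 0.000275), the ETS factor ELF3 by 1.10 (SE 0.28, adjusted p = 0.0021) and the splicing factor ESRP1 by 0.92 (SE 0.17, adjusted p = 6.87e-06) in the authors' deposited table. GRHL1 (-0.63) and KLF4 (-0.67) also fell in the authors' deposited table. The list did not move one way: EHF, another epithelial ETS factor, had 36.6 CPM in the knockout and 5.87 CPM in the parental line, a rise of 2.64 (SE 0.77, adjusted p = 0.00949), and KLF5 rose by 0.41 (adjusted p = 0.0485) in the authors' deposited table. Against the double knockout 9 of the 14 were lower and 1 higher, and against the AGO2 knockout 1 was lower. Over all described genes 18.1% were lower than in the double knockout and 3.91% lower than in the AGO2 knockout.

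Adhesion and apical traffic genes followed the same direction. Of 20 adherens and tight junction genes 8 fell (40%, against 6.19% of all described genes) and 0 rose, with a median of -0.30. CDH1, E-cadherin, had 45.4 CPM implied in the knockout and 114 CPM in the parental line, a fall of 1.33 (SE 0.42, adjusted p = 0.0195) in the authors' deposited table. The tight junction genes MARVELD3 (-1.16), CRB3 (-0.80) and INADL (-0.46), the adhesion molecule EPCAM (-0.81) and P-cadherin, CDH3 (-0.55), fell in the authors' deposited table. The catenins CTNNA1 (0.00), CTNNB1 (0.18) and CTNND1 (-0.04) and the scaffold TJP1 (0.09) were not called in the authors' deposited table. Of 20 epithelial surface protease, traffic and mucin genes 8 fell (40%) and 1 rose (5%), with a median of -0.74. AP1M2, a subunit of the epithelial sorting adaptor AP-1B, had 23 CPM in the knockout and 95.3 CPM in the parental line (-2.05, SE 0.35, adjusted p = 6.39e-07, authors' deposited table). MAL2, an apical transport protein, had 114 CPM in the knockout and 373 CPM in the parental line (-1.71, SE 0.31, adjusted p = 4.03e-06, authors' deposited table). RAB25, a small GTPase of apical recycling, fell by 1.09, and the membrane serine proteases PRSS8 and ST14 fell by 1.39 and 1.10 in the authors' deposited table. CEACAM1, a cell adhesion immunoglobulin, was the member that rose, by 1.84 (adjusted p = 9.59e-05) in the authors' deposited table, from a low level and beside paralogs of like sequence.

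Other epithelial families were split. Of 7 claudins CLDN7 (-1.22) and CLDN4 (-0.77) fell, and CLDN2, a pore-forming claudin, rose by 4.74 (SE 0.68, adjusted p = 1.75e-09) in the authors' deposited table, at 6.24 CPM in the knockout and 0.234 CPM in the parental line. Of 12 desmosome genes PKP3 fell, by 0.94 (adjusted p = 5.76e-07) in the authors' deposited table, and 0 rose. Of 8 described keratins 0 passed in either direction, and the 4 intestinal identity genes likewise did not pass. The laminin chain LAMA3 fell by 1.14, while LAMA1 and LAMB1 rose by 1.68 and 0.89 in the authors' deposited table.

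**Figure D5:**
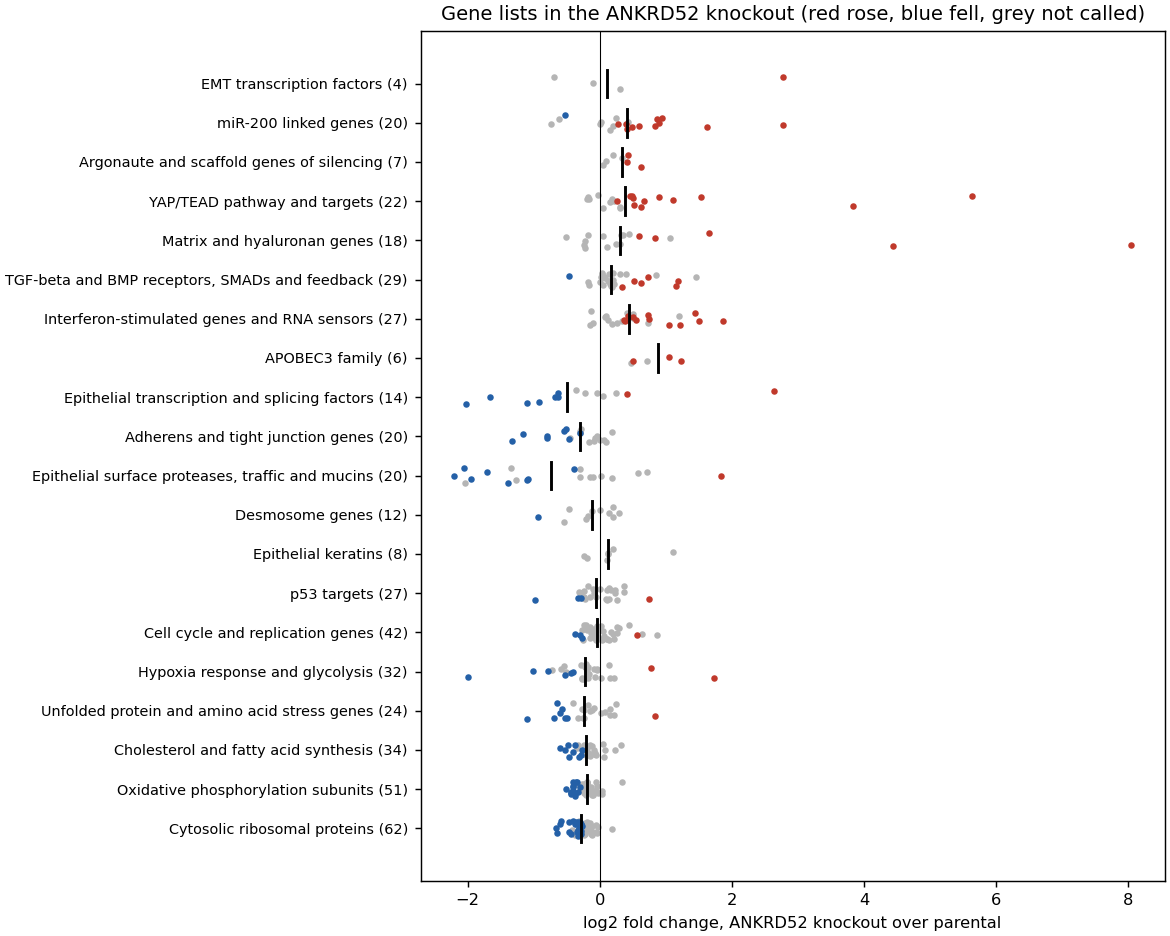
Each point is a member of a gene list, placed by its log2 fold change, ANKRD52 knockout over parental; red rose, blue fell, grey was not called, the black bar is the list median and the number of described members stands in brackets. The bars of the miR-200 linked, YAP/TEAD and interferon lists lie near 0.4, those of the epithelial factor and surface lists at -0.49 and -0.74, and 1 APOBEC3 member without a fold is not drawn.

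Several of these falls were not seen in the double knockout, which also lacks ANKRD52. Others kept their sign there without being called: ELF3 (-0.47), PKP3 (-0.33), CLDN4 (-0.25), CLDN7 (-0.20) and KLF4 (-0.20), by the authors' deposited table. AP1M2 stood at 0.17 there, GRHL2 at 0.36, MAL2 at 0.28, GALNT3 at 0.87 and CDH1 at 1.45 by the authors' deposited table for that knockout, and each was lower in the ANKRD52 knockout (adjusted p of the differences = 1.3e-09, 0.00025, 1.2e-09, 1.7e-06 and 1.3e-09). Of the 20 surface genes 17 were lower in the ANKRD52 knockout than in the double knockout, of the 20 junction genes 11, of 12 desmosome genes 10, and of 8 keratins 8. The keratins and most desmosome genes had not fallen in the ANKRD52 knockout: the keratin median was 0.12 there and 3.45 in the double knockout, and the desmosome median -0.12 and 0.58. Over all described genes 4093 differed between the ANKRD52 and the double knockout (34.5%), 1941 higher (16.3%) and 2152 lower (18.1%), so the surface, desmosome and keratin counts lie above that background. Between the ANKRD52 and the AGO2 knockout 1120 genes differed (9.43%), 656 higher (5.52%) and 464 lower (3.91%). In the AGO2 knockout MAL2 (-0.68), AP1M2 (-0.97) and CLDN7 (-0.36) had the same sign and were lower in the ANKRD52 knockout (adjusted p of the differences = 0.014, 0.025 and 0.0017), by the authors' deposited tables. Summing both squared SEs in place of their mean left 94 of the 1120 and 1985 of the 4093 differences.

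Promoters were searched for CACCTG on either strand (written CACCTG or CAGGTG), from 250 bases before to 50 after the first listed start in RefSeq (GRCh38.p14). The search was chosen after the fold changes were seen. The letters stood in 1720 of 9284 described genes with a promoter in the table (18.5%). They stood in 27 of 42 genes that fell by at least 2-fold (64.3%), in 60 of 141 that fell by at least 1.5-fold (42.6%), in 77 of 413 that fell by less (18.6%), and in 18 of 96 that rose by at least 2-fold (18.8%). Of the 60 genes that fell by at least 2-fold, the other 18 had no promoter in the table. Related strings are given beside it in the same 42 genes: CAGCTG stood in 9 (21.4%, against 16.6% of all), CACGTG in 5 (11.9%, against 10.3%) and CATCTG or CAGATG in 3 (7.14%, against 8.64%). The median GC content of the 42 promoters was 64.0% and that of all was 66.0%. The windows below, with the match in capitals and read on the strand of the gene, are from fallen genes named above or among the largest falls: AP1M2 holds 3 before its start, at chr19:10587312-10587379 (-), and the others are at chr1:156061109-156061134 for RAB25, chr1:202010457-202010482 for ELF3, chr2:165794325-165794350 (-) for GALNT3 and chr1:153616324-153616349 (-) for S100A14.
AP1M2, 57 before the start: cagcgctgctCACCTGgccgcctccc
AP1M2, 27 before the start: aagacgcacaCACCTGggctctcacc
AP1M2, 15 before the start: cctgggctctCACCTGggcgcaggcg
RAB25: tctctccaccCACCTGggccccaggt
ELF3: atatgcaaatCACCTGgggccaggag
GALNT3: ccaaggttctCACCTGgagcgctcag
S100A14: gagctgagctCAGGTGagctggctcc
A match does not show that a factor binds there.

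Several matrix genes rose, and SPARC, VIM and HAS2 did so from low parental levels. SPARC, a secreted matrix glycoprotein, had 84.7 CPM implied in the knockout and 0.323 CPM in the parental line, a rise of 8.04 (SE 1.12, adjusted p = 4.11e-10) in the authors' deposited table. VIM, the mesenchymal intermediate filament vimentin, had 39.2 CPM in the knockout and 1.81 CPM in the parental line (4.44, SE 0.65, adjusted p = 3.19e-09, authors' deposited table). HAS2, a hyaluronan synthase, reached 1.46 CPM in the knockout, against 0.0674 CPM in the parental line (4.44, SE 0.73, adjusted p = 3.6e-07, authors' deposited table). Of 18 matrix and hyaluronan genes 5 rose and 0 fell, with a median of 0.31 and a mean of 0.95, since SPARC and HAS2 carry the mean. The collagens COL6A1 (0.59) and COL13A1 (1.65) rose in the authors' deposited table. Of 13 mesenchymal cytoskeleton and cadherin genes VIM and the neural filament NES (1.05) rose by the authors' deposited table, and their list median was 0.07. Their share called was 15.4%, near the 14.0% of all described genes. Of 12 integrins ITGA5 (0.51), ITGB4 (1.22) and ITGA2 (0.58) rose, and of 18 matrix proteases, inhibitors and lysyl oxidases ADAM19 (1.30), ADAM9 (0.49), LOXL2 (0.77) and PLAT (2-fold on the linear scale) rose, in the authors' deposited table. SPARC stood at 8.17 in the double knockout and 1.79 in the AGO2 knockout, VIM at 1.10 and 2.57, and HAS2 at 9.56 and -1.05, by the authors' deposited tables.

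Growth factor and signalling genes changed in part. Of 22 genes of the YAP/TEAD pathway and its targets 12 rose (54.5%, against 7.81% of all described genes) and 0 fell, with a median of 0.39. The coactivators WWTR1 (TAZ) and YAP1 rose by 1.11 (SE 0.13, adjusted p = 1.23e-13) and 0.46 (SE 0.10, adjusted p = 0.000103) and their partner TEAD1 by 0.52 (adjusted p = 0.000592) in the authors' deposited table. Their targets CTGF (1.53), CYR61 (0.62), AMOTL2 (0.67) and AXL (0.50) rose in the authors' deposited table. WWTR1 was higher than in the AGO2 knockout (0.49, adjusted p of the difference = 0.00021) and than in the double knockout (-0.41, adjusted p of the difference = 3e-28). Among 7 TGF-beta and BMP ligands TGFB2 rose by 3.83 (SE 1.08, adjusted p = 0.00655) and BMP4 by 0.47, and GDF15, a stress-induced ligand, fell by 0.99 (SE 0.17, adjusted p = 1.98e-06) by the authors' deposited table. Of 29 receptors, SMADs and feedback genes 6 rose and 1 fell, among them the receptors TGFBR1 (0.34), ACVR2B (0.63) and BMPR2 (0.51), the inhibitor SMAD7 (1.16) and the target ID3 (0.73), all up in the authors' deposited table.

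SEMA3A, a secreted guidance cue that binds neuropilins, had 169 CPM in the knockout and 10.9 CPM in the parental line (3.96, SE 0.66, adjusted p = 3.73e-07, authors' deposited table). It stood at -0.33 in the AGO2 knockout and 3.92 in the double knockout by the authors' deposited tables, and differed from the AGO2 knockout (adjusted p = 5.6e-09). SEMA3C (2.03) and SEMA3B (1.13) also rose and SEMA4G (-0.40) fell, among 22 semaphorin, neuropilin and plexin genes in the authors' deposited table. JAG1 reached 306 CPM in the knockout, against 99.1 CPM in the parental line, while the other Jagged ligand JAG2 fell by 0.59 (adjusted p = 0.00568) in the authors' deposited table. AXIN2, which feeds back on beta-catenin, rose by 1.53 (SE 0.33, adjusted p = 0.000205) by the authors' deposited table, 1 of 3 risen members of 16 Wnt feedback and target genes. The receptor EPHA1 fell by 1.17 (SE 0.17, adjusted p = 7.19e-09) by the authors' deposited table. Of 21 ERK feedback genes 3 rose and 1 fell (median 0.16): the inhibitors SPRED3 (2.01-fold on the linear scale) and SPRED2 (0.27) and the phosphatase DUSP4 (0.59) rose and SPRY1 (-0.68) fell by the authors' deposited table. Of 10 EGF receptors and ligands the ligand TGFA fell, by 0.71, by the authors' deposited table. Of 23 FGF, PDGF, MET and VEGF genes FGF18 (1.53) and IGF2R (0.37) rose and VEGFA, given above, fell, by the authors' deposited table. The shares called in the EGF and FGF lists lay below the 14.0% of all described genes. Of 11 NF-kB chemokines and feedback genes the inhibitor NFKBIA rose by 0.56 and NFKB2 fell by 0.28 in the authors' deposited table. The shares called in the semaphorin, ERK feedback and NF-kB lists lay only a little above that background.

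Interferon-stimulated and APOBEC3 genes were higher. Of 27 interferon-stimulated genes and RNA sensors 12 rose (44.4%, against 7.81% of all described genes) and 0 fell. Of the 27, 24 were above 0, and the median was 0.44. IFIT2, an interferon-induced RNA-binding protein, rose by 1.86 (SE 0.36, adjusted p = 2.24e-05), the transcription factor IRF7 by 1.43 on the log2 scale, the double-stranded RNA receptor TLR3 2.83-fold, IFIT1 by 1.04 and OAS3 by 0.42 in the authors' deposited table. The central factors STAT2 (0.38) and IRF9 (0.74) rose, and ISG15 (0.13) was not called, in the authors' deposited table. Of 6 APOBEC3 cytidine deaminases 4 rose: APOBEC3B by 1.22 (SE 0.20, adjusted p = 1.58e-07), APOBEC3F by 1.04 and APOBEC3C by 0.50 in the authors' deposited table, while APOBEC3G gets no fold, with a parental level implied below 3 reads. These genes are near-identical in stretches, so reads may have been split uncertainly. The HLA class I genes did not move as a list: of 10, 3 rose, 0 fell and 5 were above 0, with a median of -0.003. The risen ones were B2M, the light chain of HLA class I, by 0.55, and the peptide trimming enzymes ERAP1 and ERAP2, by 1.06 and 1.01, in the authors' deposited table. Against the AGO2 knockout 2 of the 27 interferon genes were higher and 1 lower, near the background given above.

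Biosynthetic genes were lower by small amounts. Of 62 cytosolic ribosomal protein genes 28 fell (45.2%, against 6.19% of all described genes) and 0 rose. Only 1 was above 0, and the median was -0.29. RPL13 fell by 0.67 (SE 0.14, adjusted p = 0.000106) and RPL37 by 0.58 (SE 0.14, adjusted p = 0.000949) in the authors' deposited table. Many of these genes have processed pseudogenes, so their counts are uncertain. Of 51 oxidative phosphorylation subunits 14 fell (27.5%) and 0 rose, with a median of -0.20. SDHB, a subunit of complex II, fell by 0.43 (SE 0.08, adjusted p = 2.43e-06) in the authors' deposited table. The median 3' UTR length was 708 bases in the first list and 444 in the second, against 1455 over all genes with a 3' UTR, and the part of length in these falls was not tested. Of 34 cholesterol and fatty acid synthesis genes 9 fell (26.5%) and 0 rose, with a median of -0.20. The fallen ones included INSIG1 (-0.52), MVD (-0.60), DHCR7 (-0.47) and FASN (-0.48) in the authors' deposited table. Against the double knockout 28 of these 34 were higher in the ANKRD52 knockout, and 0 were lower, against 16.3% and 18.1% of all described genes.

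Stress and growth control genes fell in part. In the list of unfolded protein and amino acid stress, 7 of 24 genes fell and 1 rose (median -0.24). The amino acid transporter subunits SLC7A5 and SLC3A2 fell by 0.70 and 0.57 and the glutathione-degrading CHAC1 by 1.11, while the chaperone cofactor DNAJB9 rose by 0.83, in the authors' deposited table. Of 32 hypoxia and glycolysis genes 6 fell and 2 rose: ADM (-1.01), HK2 (-0.79), PFKL (-0.41) and ANKRD37 (-2.00) fell, and the glucose transporters SLC2A3 (1.73) and SLC2A1 (0.77) rose, in the authors' deposited table. Of 27 p53 targets 3 fell and 1 rose (14.8% called, near the 14.0% of all described genes), with a median of -0.06. Of these 27, 15 were lower than in the AGO2 knockout and 20 lower than in the double knockout, with 0 higher in both comparisons. Over all described genes 3.91% and 18.1% were lower. The p53 list median was 0.44 in the AGO2 knockout and 0.68 in the double knockout. BAX, an apoptosis effector, was 1 of the 3 fallen targets. It stood at -0.33 in the ANKRD52 knockout, at 0.22 in the AGO2 knockout and at 0.52 in the double knockout by the authors' deposited tables. Of 42 cell cycle and replication genes 3 fell and 1 rose (9.52% called, against 14.0% of all described genes): CDT1, E2F1 and MCM2 fell and CCNE2 rose by 0.56 (adjusted p = 0.00426) in the authors' deposited table.

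Several of the largest changes lie outside these lists. RGS5, a regulator of G-protein signalling, had 51.0 CPM implied in the knockout and 6.61 CPM in the parental line (2.95, SE 0.56, adjusted p = 1.66e-05, authors' deposited table), and stood at 0.23 in the AGO2 knockout and 0.31 in the double knockout. SNAP25, a SNARE protein of neurons, rose by 2.30 (SE 0.52, adjusted p = 0.000465) in the authors' deposited table and differed from both other knockouts (adjusted p = 0.00052 against the AGO2 and 4.9e-05 against the double knockout). Of the 3 listed neuronal or glial markers, SYT1 also rose (0.51) and MBP fell (-0.62) in the authors' deposited table. PDLIM5, an actin-associated LIM protein, rose by 1.58 (SE 0.29, adjusted p = 5.71e-06) and SESN3, a sestrin, by 1.56 (SE 0.35, adjusted p = 0.000419) in the authors' deposited table, and both were higher than in each other knockout. PRF1, perforin, rose by 2.77, NEBL by 1.83 and IQGAP2 by 1.82 in the ANKRD52 knockout by the authors' deposited table, against 8.61, 3.10 and 4.93 in the double knockout. TNFSF18, a ligand of the tumour necrosis factor family, rose by 3.35 in the ANKRD52 knockout and stood at -4.11 in the double knockout in the authors' deposited tables (adjusted p of the difference = 8.7e-21). The largest fall was that of TTN, titin, by 2.72 (SE 0.65, adjusted p = 0.000986), and the transcriptional repressor PRDM1 fell by 2.29 (SE 0.46, adjusted p = 4.33e-05) in the authors' deposited table. SYK, a tyrosine kinase, fell by 1.30 (SE 0.24, adjusted p = 4.64e-06) in the ANKRD52 knockout, against 0.04 in the AGO2 knockout and 1.48 in the double knockout by the authors' deposited tables.

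Other large rises were mostly of genes at low parental levels. ANKRD1, a muscle ankyrin repeat protein and a member of the YAP/TEAD list, had 2.72 CPM implied in the knockout and 0.0546 CPM in the parental line (5.64, adjusted p = 0.00724, authors' deposited table). TNFSF4, the OX40 ligand, had 29.8 CPM in the knockout and 2.77 CPM in the parental line (3.43, SE 0.98, adjusted p = 0.00732, authors' deposited table). The glutamate receptor subunit GRIK2 (4.09), the kinase DCLK1 (3.19), the serpins SERPINA5 (3.14) and SERPINF1 (2.53), the LDL receptor relative LRP1B (2.93), PLEKHS1 (2.87), the protocadherin FAT2 (2.64), SUSD2 (2.28) and CNTNAP3 (2.25) also rose by the authors' deposited table. GPR55 was called too and gets no fold, with a parental level implied below 3 reads. CNTNAP3 was higher than in the AGO2 knockout (adjusted p = 1.7e-05) and than in the double knockout (adjusted p = 6.9e-18), while SERPINA5 and SERPINF1 were higher than in the AGO2 knockout and lower than in the double knockout. At higher expression, the transporter SLC16A6 (1.81) and the transglutaminase TGM2 (1.70) rose by the authors' deposited table.

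Among the remaining large falls, ATP2C2, a calcium and manganese pump of the secretory pathway, had 3.52 CPM implied in the knockout and 18.2 CPM in the parental line (-2.37, SE 0.51, adjusted p = 0.000162, authors' deposited table). The prominin PROM2 (-2.20), C1orf210 (-2.06), CCDC64B (-1.95), TMEM125 (-1.86), the flippase ATP8B1 (-1.77), the calcium channel subunit CACNB4 (-1.67), AIM1 (-1.66), the epsin EPN3 (-1.56), the complement receptor CR2 (-1.49) and ankyrin-G, ANK3 (-1.46), fell by the authors' deposited table. NUDT3 (-1.42), CNTD2 (-1.42), the ubiquitin ligase LNX1 (-1.35) and the neuropeptide precursor VGF (-1.34) fell as well, and at higher expression ZNF516 (-1.30), TC2N (-1.10) and the hypoxia-inducible factor EPAS1 (-1.02), by the authors' deposited table. ATP2C2, PROM2, CCDC64B and TMEM125 were each lower than in the double knockout (adjusted p of the differences = 9.3e-06, 1.9e-06, 1.6e-09 and 1e-07), and CCDC64B alone of these 4 also than in the AGO2 knockout (adjusted p of the difference = 0.0039).

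Set side by side over the same parental libraries, the 927 risen genes had a median log2 fold change of 0.50 in the ANKRD52 knockout, 0.23 in the AGO2 knockout and 0.37 in the double knockout. The 735 fallen genes had medians of -0.44, -0.21 and -0.37 in the same order. Being chosen by the first comparison and sharing its parental libraries, these medians describe the genes and support nothing further. The direction of calls was uneven over the genome. Of 823 genes on chromosome 19, 23 rose and 100 fell (median -0.07), and of 364 on chromosome X, 35 rose and 12 fell (median 0.06). Over all 11877 described genes 927 rose (7.81%) and 735 fell (6.19%). The share called in either direction was 14.9% on chromosome 19 and 12.9% on chromosome X, near the 14.0% of all. The medians of the other chromosomes lay between these, and those of windows of 40 neighbouring genes ran from -0.19 (UNKL to ATP6V0C on chromosome 16, 0 rose and 11 fell) to 0.21 (MGAT2 to MAPK1IP1L on chromosome 14, 12 rose and 0 fell), with an SD of 0.065 over 552 windows.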

How the data were processed

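PolyA RNA of 12 HCT116 libraries, 3 in each of 4 groups, went through a stranded kit, as the labels' protocols state. Upstream, edgeR 3.8.6, featureCounts 1.4.6 and TopHat2 2.0.12 with build hg19 appear in the submitters' processing notes, without their roles. The 3 deposited tables hold, per the file headers, the authors' log2 fold change and mean log2 CPM, a likelihood ratio score, a p-value and an adjusted p. For 12756 of 12756 genes (relative tolerance 1e-06) the p is the chi-square tail of the score and the adjusted value is Benjamini-Hochberg. With no counts per library, the deposited test was used in place of a quasi-likelihood test, and precision by depth is unknown.

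Approximate SEs are |log2 fold change| divided by the score's square root. Differences between knockouts used the mean of both squared SEs, since the parental level drops out, and a normal test with Benjamini-Hochberg adjustment over described genes. It was run on simulated data with equal spread in the groups, as the mean assumes. That run cannot check the test where spreads differ or counts are low. Implied CPM assumes 4 equal groups. No fold is given where it lies under 3 reads (0.0345 CPM, at an assumed prior count of 0.125). 3' UTRs are the longest per gene in GENCODE 29 (11334 genes, 50 bases or more).

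Genes to name were drawn from the PP6, casein kinase 1, Argonaute and scaffold genes, the 25 largest called rises and falls, the 15 largest among genes above a mean log2 CPM of 5, and up to 5 called members per list and direction. Not every called list member is named, further members are named where their family is described, and a few genes are not reported here. Members and lists were chosen with earlier results of these data known. Alternatives were thresholds, filters, the F distribution, list summaries, variances and site definitions. Tools were matplotlib 3.10.9, pandas 2.3.3, scipy 1.17.1, numpy 2.4.6 and Python 3.11.15.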

Additional observations from a re-analysis of the deposited data

How the results depend on the processing

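The count of 1662 called genes became 835 at an adjusted p under 0.01 (520 rose, 315 fell), 562 with at least a 1.5-fold change (363 rose, 199 fell) and 3 with F(1, 8) (2347 at an unadjusted p under 0.05, against 3189 with the chi-square). The larger share of rises stayed, at 62.3% and 64.6%, against 55.8% of the 1662. An adjusted p under 0.1, all genes, a floor of 3 on mean log2 CPM and adjustment over described genes kept the count within 1.5 times, from 1470 to 2237. Differences from the AGO2 knockout fell to 94 of 1120 with the sum of squared SEs and to 525 at an adjusted p under 0.01, and those from the double knockout to 1985 of 4093 with the sum. The 4 microRNA families above the background became 0 with matches of 6 bases or longer, and the cause was not tested. They became 5 with 8-base matches, 6 with the shortest 3' UTR and 5 with log2 fold changes limited to -1 to 1. With 8-base matches the effect of miR-200b-3p was 0.088, and with the shortest 3' UTR it was 0.069. The highest background effects in these settings were 0.051 (miR-133a-3p) and 0.045 (miR-9-5p). The let-7a-5p effect was 0.0062 with 8-base matches, 0.022 with matches of 6 bases or longer and 0.032 with the shortest 3' UTR. The medians of the claudin and Notch lists turned sign with that floor of 3, and the mean differed in sign from the median for the EGF, Notch, HLA class I and cell cycle lists, all within 0.2 of 0. Of 202 named genes, 187 were called and 150 stayed under an adjusted p of 0.01. Counting CACCTG at any listed start of a gene, chosen after seeing the data, gave 69.0% in place of 64.3% of genes that fell by at least 2-fold. The same change gave 24.5% in place of 18.5% of all described genes with a promoter. It gave 28.1% in place of 18.8% of genes that rose by at least 2-fold. No paired analysis was possible because the tables hold fold changes only, and leaving out a replicate was not run for the same reason. Depth limits could not be set without counts.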

Other observations

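Long noncoding RNA genes were described beside the messenger RNAs. Of 116 matched as long noncoding 5 rose and 13 fell, a share called of 15.5% against 14.1% of 11397 protein coding genes. MIR31HG, the host transcript of miR-31, rose by 2.08 (SE 0.35, adjusted p = 6.12e-07), LINC00152 by 1.15 and TUG1 by 0.35 in the authors' deposited table. UCA1, a transcript linked to bladder and colon tumours, had 56.8 CPM implied in the ANKRD52 knockout and 141 CPM in the parental line, a fall of 1.32 (SE 0.47, adjusted p = 0.0388) in the authors' deposited table, and stood at 1.27 in the double knockout. Of 13 described genes with SNHG symbols, which host small nucleolar RNAs in their introns, 5 fell, 0 rose and all 13 lay below 0, from -0.84 to -0.05, with a median of -0.31. Over the same parental libraries the median of these 13 was -0.20 in the AGO2 knockout and -0.16 in the double knockout. The SNHG group was chosen after its values were seen.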
